A study of Anoectochilus roxburghii with 9 samples.

Results

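A set of 51 genes stood at or under 50% of the empty vector level in ArPHR4 leaves, while ArPHR2 leaves kept them within 80% to 125% of it. They were chosen from the 85512 assembled genes of the deposited table by their own counts. Each had a mean of at least 5 and under 1000 CPM in empty vector leaves, and an ArPHR4 mean at or under 50% of both the empty vector and the ArPHR2 mean. CPM, the count scaled to a library total of 1000000 counts, was taken from the plain library totals. Since all 9 libraries entered this choice, the levels of the 51 genes and the calls made on them are given as a description and support nothing.

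The 9 libraries came from leaves of Anoectochilus roxburghii, a medicinal orchid, labelled wild type in all groups and taken 3 days after a transient overexpression treatment. The empty vector group (EV), the ArPHR2 overexpression group and the ArPHR4 overexpression group held 3 libraries each. A deposited list of library names joins YFP, a fluorescent protein, to each of the 3 construct names. The sources used here give neither the promoter, the way of delivery nor the share of leaf cells that took up a construct. Whether each library is a plant of its own is not stated either, and the spread behind the p-values may therefore be technical. Library totals were 16032716 to 17244083 counts. On the levels of the constructs themselves nothing is reported, since the table pairs no ID with a gene name.

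PHR proteins are transcription factors of the MYB type. In Arabidopsis and rice they bind a short promoter element of genes that respond to phosphate shortage, such as phosphate transporters and acid phosphatases, and SPX proteins hold them back while phosphate is ample. They are best known as activators of such genes. The functions of the 51 genes are unknown here, because the files give assembly IDs without descriptions, and leaf cell markers could not be checked for the same reason. In whole leaves, fewer cells of a type and less RNA per cell cannot be told apart.

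The 51 genes were a small part of the genes low in ArPHR4. Of 13686 genes in the same EV range, 785 (5.74%) were at or under 50% of EV in ArPHR4 leaves. Most of these were below EV in ArPHR2 leaves too. In ArPHR2, 372 of the 785 were also at or under 50% of EV, and 333 lay between 50% and 80%. Only 6 were over 125%. The other 74 lay within 80% to 125%, and 23 of them were left out because ArPHR4 was over 50% of ArPHR2. The 51 genes were thus 6.50% of the genes low in ArPHR4. The same limits with the constructs exchanged, low in ArPHR2 and near EV in ArPHR4, were met by 6 genes. Those for genes at least 2-fold higher in ArPHR4 and near EV in ArPHR2 were met by 53.

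**Figure D1:**
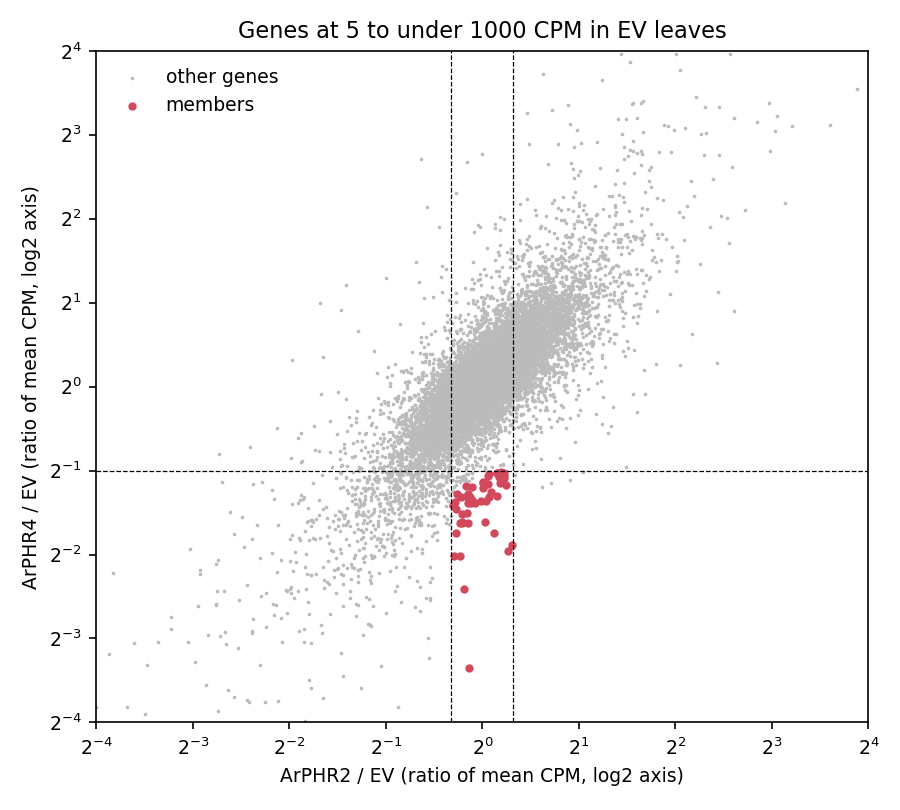
Ratio of mean CPM to EV in ArPHR2 leaves (horizontal axis) and ArPHR4 leaves (vertical axis), both on log2 axes, for genes at 5 to under 1000 CPM in EV. Dashed lines mark 80%, 125% and 50% of EV, red points are the 51 chosen genes, grey points are the others, and 39 of the 13686 genes lie outside the plotted range of ratios.

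The limits cut through a continuous cloud of genes. The chosen gene nearest to the limit on ArPHR4 stood at 49.3% of EV, and the nearest gene left out by that limit alone stood at 50.7%. For ArPHR4 against ArPHR2 the same 2 values were 49.6% and 50.5%. For ArPHR2 against EV they were 81.0% and 79.6% at the lower limit, and 124.0% and 125.5% at the upper. The lower limit alone left out 107 genes and the upper limit alone 6. The limit on ArPHR4 against EV alone left out 8, and that on ArPHR4 against ArPHR2 alone 23. At the lower limit on EV level the nearest gene inside had 5.13 CPM and the nearest outside 4.93 CPM. That limit alone left out 2280 genes, the most of any limit. One gene at 1000 CPM or more in EV met every other limit.

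Together the 51 genes took about the same part of the counts in EV and ArPHR2 leaves and a much smaller part in ArPHR4 leaves. Their summed level was 2636, 2653 and 2735 CPM in the EV libraries and 2650, 2670 and 2658 CPM in the ArPHR2 libraries. In the ArPHR4 libraries it was 1059, 1071 and 1141 CPM. The ArPHR2 libraries thus lay within the range of the EV libraries, and the ArPHR4 libraries lay below both. The group means were 2675 ± 53.0, 2659 ± 10.02 and 1090 ± 44.2 CPM (SD, n = 3).

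**Figure D2:**
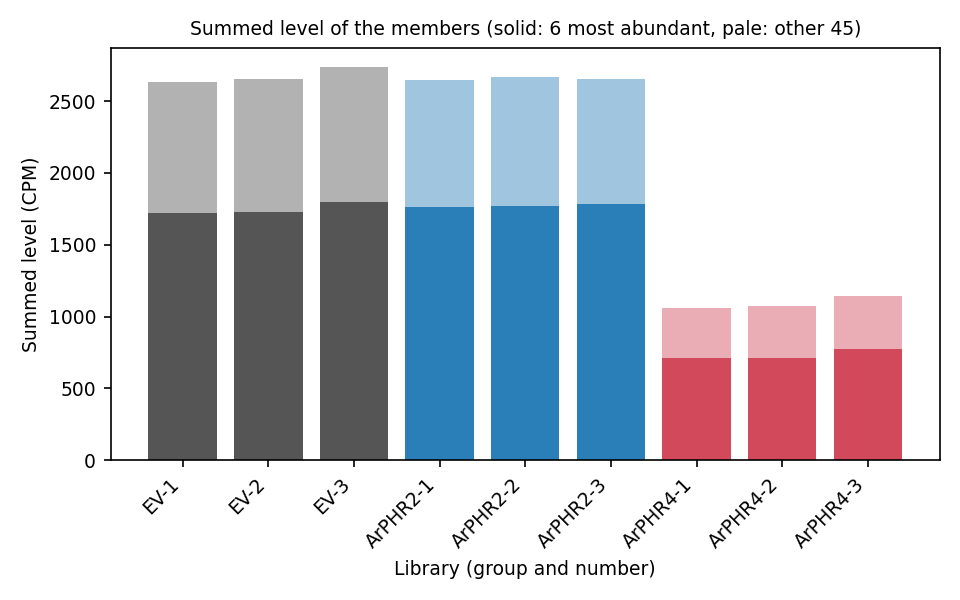
Summed level of the 51 genes in each library (CPM), with the 6 genes of highest EV CPM as the solid part of each bar and the other 45 as the pale part. The 3 ArPHR4 libraries, at 1059 to 1141 CPM, stand below the 6 others, which span 2636 to 2735 CPM.

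A few genes held most of this sum. The 6 with the highest EV CPM made up 65.4% of the members' EV total, and a gap separated the gene ranked 6 (222 CPM) from the gene ranked 7 (91.3 CPM). Both parts were lower in ArPHR4. The 6 genes summed to 1718 to 1800 CPM in EV, 1760 to 1787 CPM in ArPHR2 and 713 to 776 CPM in ArPHR4. The other 45 summed to 918 to 935, 871 to 897 and 346 to 365 CPM. For the 45, all ArPHR2 libraries were a little below all EV libraries, while for the 6 the ArPHR2 and EV libraries overlapped.

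TRINITY_DN8347_c0_g1 had the highest EV CPM of the set. It was at 390, 359 and 359 CPM in EV, at 332, 330 and 368 CPM in ArPHR2 and at 145, 144 and 145 CPM in ArPHR4. ArPHR2 overlapped EV, and the ArPHR4 libraries were nearly identical, with a coefficient of variation of 0.382%. The ArPHR4 mean was 2.55-fold below EV, with a log2 fold change of -1.45 ± 0.048 (SE) in the edgeR model. That model was fitted to all 9 libraries and 27275 genes with libraries scaled by TMM, a trimmed mean that sets the bulk of genes equal.

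TRINITY_DN47_c0_g2 came next by ArPHR2 level among the genes given by ID, and it was higher in ArPHR2 than in EV. Its libraries read 291, 281 and 263 CPM in EV, 328, 332 and 328 CPM in ArPHR2 and 121, 129 and 121 CPM in ArPHR4. No 2 groups overlapped. ArPHR4 was 2.67-fold below ArPHR2 (log2 difference -1.45 ± 0.045, SE) and 2.26-fold below EV. It shares its assembly component with 3 other IDs, but it held 98.5% of the component's EV CPM.

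The remaining 4 genes of the abundant group, described by their rank in EV CPM, differed in how steady they were. The gene ranked 3 had the deepest drop of the 6, with 286 ± 8.14, 247 ± 6.71 and 93.1 ± 4.20 CPM in EV, ArPHR2 and ArPHR4 leaves (SD, n = 3), a 3.07-fold difference from EV. The gene ranked 5 was at 272 ± 7.18, 274 ± 7.72 and 124 ± 5.93 CPM, and the gene ranked 6 at 222 ± 2.00, 258 ± 3.21 and 104 ± 5.84 CPM. Only the first of these 3 was lower in all ArPHR2 libraries than in all EV libraries, and the last was higher in all of them.

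The gene ranked 2 was the unsteady one. It read 255, 315 and 393 CPM in EV, 327, 323 and 315 CPM in ArPHR2 and 132, 118 and 186 CPM in ArPHR4. The groups did not overlap between ArPHR4 and the rest, but its highest ArPHR4 library reached 73.1% of its lowest EV library. Its implied length, explained further on, was 70.2 bases, against a median of 783 for the set.

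**Figure D3:**
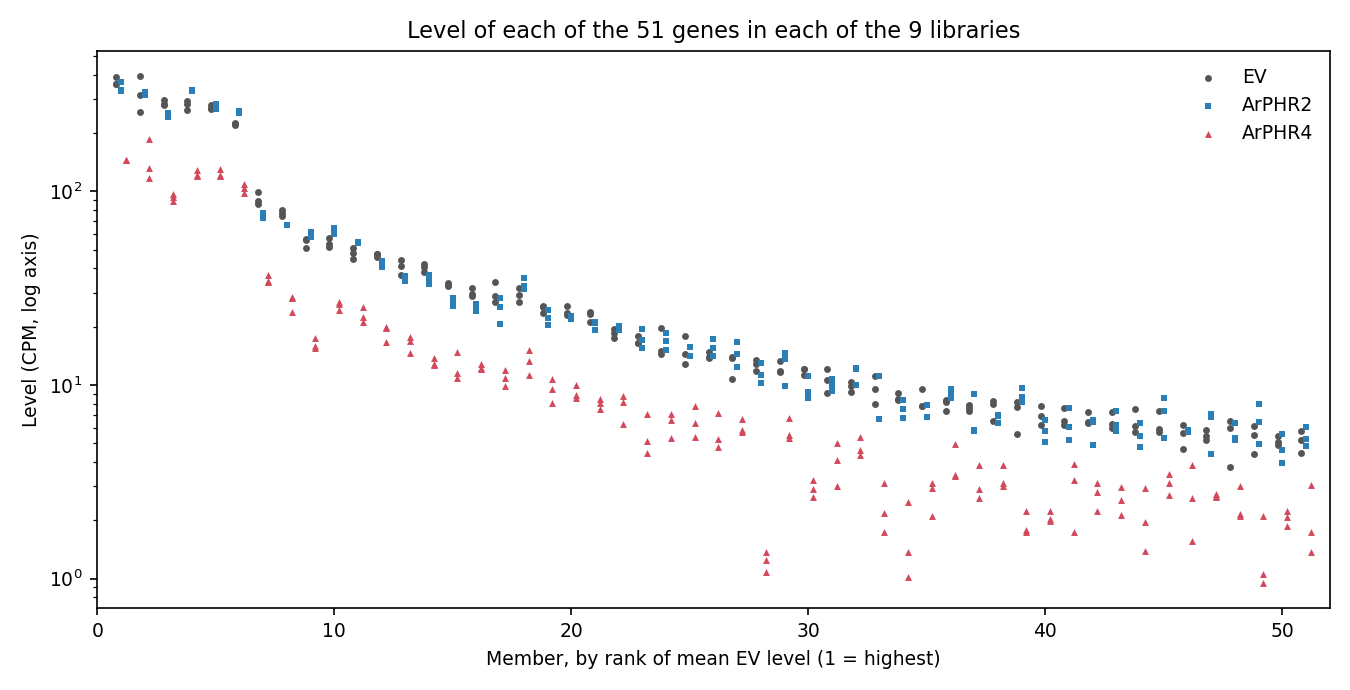
Level of each gene in each library (CPM, log axis), ordered by mean EV level, with 3 points per group. The ArPHR4 points lie below all EV and ArPHR2 points of the same gene throughout, and the spread of the ArPHR4 points is wider on the right, where levels are low.

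The drops ranged from just over 2-fold to 10.2-fold, with most near the limit. Against EV, 26 genes were lower by under 2.5-fold, 12 by 2.5-fold to under 3-fold, 9 by 3-fold to under 4-fold and 4 by at least 4-fold. The median ArPHR4 level was 40.1% of EV and 41.3% of ArPHR2. The median ArPHR2 level was 94.6% of EV, with 24 genes above EV, 27 below it and 22 within 10% of it.

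TRINITY_DN143_c1_g2 had the deepest drop. It was at 13.4, 12.8 and 11.8 CPM in EV, at 13.0, 10.2 and 11.3 CPM in ArPHR2 and at 1.09, 1.25 and 1.37 CPM in ArPHR4. The EV and ArPHR2 libraries overlapped and the ArPHR4 libraries stood far below them. Behind these values were 627 counts over the EV libraries, 582 over the ArPHR2 libraries and 61 over the ArPHR4 libraries. From these sums, scaled by the library totals, the drop was 10.2-fold against EV (95% interval 7.87 to 13.6) and 9.30-fold against ArPHR2 (7.13 to 12.3). The intervals are exact (Clopper-Pearson) and cover only the error of counting.

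TRINITY_DN13328_c0_g1 was the next by its drop against ArPHR2, and a much noisier case. It had 73, 101 and 91 counts in EV, 111, 84 and 131 counts in ArPHR2 and 35, 16 and 17 counts in ArPHR4. One ArPHR4 library was thus well above the other two. Its means in EV, ArPHR2 and ArPHR4 leaves were 5.35 ± 0.852, 6.44 ± 1.48 and 1.38 ± 0.639 CPM (SD, n = 3). From the summed counts the drop was 4.67-fold against ArPHR2 (95% counting interval 3.59 to 6.16), with a log2 difference of -2.25 ± 0.26 (SE).

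The other steep drops were also of genes near the lower limit of EV level. The gene ranked 2 by its drop was at 8.64 ± 0.395 CPM in EV, 7.55 ± 0.786 CPM in ArPHR2 leaves and 1.62 ± 0.760 CPM in ArPHR4 leaves (SD, n = 3), 5.34-fold below EV. The genes ranked 3 and 4 were 4.06-fold and 4.04-fold below EV. The gene ranked 6 had the highest ArPHR2 level relative to EV of the set, 124.0%, with means of 7.13 ± 1.36, 8.84 ± 0.774 and 1.93 ± 0.276 CPM. Among genes over 50 CPM in EV the steepest drop was of the gene ranked 9 by EV CPM, from 54.6 ± 3.06 and 59.2 ± 1.88 to 16.3 ± 1.06 CPM, 3.35-fold below EV.

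Low levels were common in the set. In EV leaves 20 of the 51 genes (39.2%) were at 5 to under 10 CPM, against 17.2% of the 13686 genes in the same range. A further 10 were at 10 to under 20 CPM, 11 at 20 to under 50, 4 at 50 to under 100 and 6 at 100 or more. The median was 14.1 CPM, against 29.6 CPM for all genes in the range. Genes at or under 50% of EV under both constructs had a median EV level of 16.1 CPM.

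The spread between libraries was wider in ArPHR4, where counts were fewest. The median coefficient of variation of the 51 genes was 6.55% in EV, 7.73% in ArPHR2 and 13.3% in ArPHR4, against 5.41%, 6.11% and 5.91% for all genes in the EV range. The median gene had 699 counts over the EV libraries, 768 over the ArPHR2 libraries and 288 over the ArPHR4 libraries. Genes low under both constructs had a median of 11.5% in ArPHR2 and 16.6% in ArPHR4. The ArPHR4 libraries 1, 2 and 3 were the highest of their group for 12, 18 and 21 genes. Library 3 was the highest of the group for 34.2% of all genes in the EV range. The median level of the set was 5.31, 5.49 and 6.74 CPM in these libraries, so library 3 stood a little above the others.

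The groups did not overlap for any of the 51 genes: every ArPHR4 library was below every EV and every ArPHR2 library. That held for 10.3% of the 27275 tested genes, but the rule used these values, and nothing is read from the difference. A stricter separation, with every ArPHR4 library at or under 50% of every EV and every ArPHR2 library, was met by 21 of the 51 genes and by 0.799% of those tested. The weakest separation was of the gene ranked 46 by EV CPM, whose highest ArPHR4 library, at 3.88 CPM, reached 83.1% of its lowest EV library, at 4.67 CPM.

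All 51 genes passed the filter on low counts of the edgeR quasi-likelihood model, and its calls at an adjusted p under 0.05 restate the choice. All 51 were called lower in ArPHR4 than in EV. Of all tested genes 25.9% were called lower in that comparison. Against ArPHR2 all 51 were called lower too, with 16.2% of all tested genes. Both comparisons were part of the choice, so nothing is read from these counts. The median log2 difference of the set was -1.41 against EV and -1.30 against ArPHR2, while that of all tested genes was 0.01 and 0.00. With library totals alone as the scale, as the rule reads the counts, the median of all tested genes shifted to 0.11 for ArPHR4 against EV. The median of the set was then -1.31.

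The comparison of ArPHR2 with EV was part of the choice as well, and its calls are given without a reading. The model called 11 of the 51 genes lower and 3 higher in ArPHR2 than in EV, 14 in all. Over all tested genes 44.3% were called in that comparison, 21.7% lower and 22.6% higher. The lowest called log2 difference was -0.37 ± 0.094 and the highest 0.17 ± 0.043 (SE). These are on the TMM scale, where the median of the set was -0.15. With plain library totals, on which the 80% to 125% limits were set, it was -0.08, and 9 genes were called lower and 4 higher. TRINITY_DN8347_c0_g1 was among the 11, at -0.17 ± 0.046, and TRINITY_DN47_c0_g2 among the 3.

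For 12 of the 51 genes every ArPHR2 library was below every EV library, and for 7 every one was above. These patterns held for 22.4% and 30.3% of all tested genes. The ArPHR2 and EV libraries overlapped for the other 32. The gene with the lowest ArPHR2 level relative to EV, 81.0%, read 33.6, 32.9 and 32.4 CPM in EV and 25.5, 26.5 and 28.1 CPM in ArPHR2. These groups did not overlap, and its ArPHR4 libraries were lower again, at 14.7, 10.9 and 11.5 CPM.

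An ID holds the number of its assembly component and then of the gene within it, and the genes of 1 component can share reads. No component held 2 of the 51 genes. For 35 genes the ID was alone in its component, and 16 had companions, 25 IDs in all, which the rule did not use. Of these companion IDs 16 had enough counts to be tested. In ArPHR4 against EV 7 companion IDs were called lower and 4 higher (edgeR, adjusted p under 0.05), against 25.9% lower and 26.1% higher of all tested genes. In ArPHR2 against EV 3 were called lower and 4 higher, against 21.7% and 22.6% of all tested genes. The median log2 difference of the tested companion IDs was -0.50 in ArPHR4 and -0.08 in ArPHR2. Without single libraries the count of lower companion IDs lay between 5 and 8, so these few IDs give no firm share.

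The companion ID of the gene with the deepest drop went the other way. TRINITY_DN143_c1_g1 had 369, 392 and 356 counts in EV, 1029, 999 and 1059 counts in ArPHR2 and 1343, 1494 and 1435 counts in ArPHR4. The 3 groups did not overlap and rose in this order. Its level was 22.6 ± 1.06, 61.0 ± 2.71 and 86.5 ± 4.83 CPM (SD, n = 3). In the edgeR model it rose by 1.84 ± 0.068 on the log2 scale (SE) in ArPHR4 (adjusted p = 2.56e-21) and by 1.37 ± 0.069 in ArPHR2 (adjusted p = 2.34e-17). Between the constructs it was 0.47 ± 0.061 higher under ArPHR4 (SE, edgeR adjusted p = 1.56e-07).

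Over this component the total therefore was not lower but higher in ArPHR4, with a log2 difference from EV of 1.22 ± 0.062 (SE, edgeR adjusted p = 7.47e-17). In ArPHR2 the total was higher than in EV too, by 0.98 ± 0.063 (SE, edgeR adjusted p = 4.17e-14). Both IDs together summed to 35.2 ± 1.59 CPM in EV leaves, to 72.4 ± 3.01 CPM in ArPHR2 leaves and to 87.8 ± 4.96 CPM in ArPHR4 leaves (SD, n = 3). TRINITY_DN143_c1_g2 held 36.0% of that total in EV, 15.8% in ArPHR2 and 1.41% in ArPHR4. Its share thus also went down in ArPHR2, where its own level was near EV. The part that sharing of reads between both IDs has in these values was not tested.

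TRINITY_DN3567_c0_g2 was the other companion ID with a large called rise, but on very few counts. It had 6, 1 and 0 counts in EV, 10, 4 and 15 in ArPHR2 and 16, 5 and 10 in ArPHR4. The EV and ArPHR4 libraries overlapped. The log2 difference was 2.00 ± 0.82 (SE, edgeR adjusted p = 0.0401), and the call was lost without either of the EV libraries 2 and 3 (log2 values 1.64 and 1.42), of the ArPHR2 libraries 1 and 3 (2.00 and 2.00) and of the ArPHR4 libraries 1 and 3 (1.55 and 2.01). Without EV library 1 the call was kept and the value rose to 3.99. The call was also lost with DESeq2 (2.04), with no filter on low counts (2.00) and with limma on log2(FPKM + 1) (1.48) and log2(FPKM + 0.1) (2.85).

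**Figure D4:**
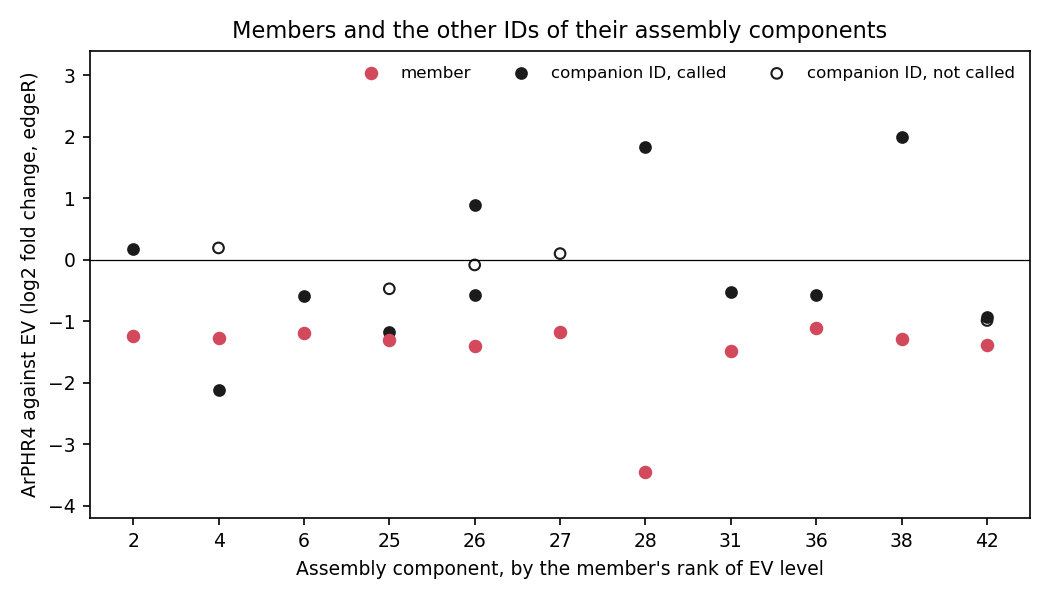
Log2 fold change in ArPHR4 against EV (edgeR) of the genes of the set that have tested companion IDs (red) and of these companion IDs (black where called, open where not), for 11 components ordered by the gene's rank in EV CPM. The component at rank 28 holds the deepest drop and a companion ID at 1.84, and the companion IDs of the others lie between -2.13 and 2.00.

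In most other components the total was lower along with the member. Counts summed by component were called lower in ArPHR4 than in EV for 14 of the 16 components, with 26% of all component totals called lower. The component of TRINITY_DN143_c1_g2 was the 1 called higher, and 1 was not called. The member itself is part of each total and was chosen for its drop, so nothing is read from the count of lower totals. In 9 components it held at least 90% of the EV CPM, and the total of 7 of these was at or under 50% of EV. In 5 components it held under 50%. The member ranked 27 by EV CPM held 16.7% of a component whose total was 103% of EV in ArPHR4 and was not called (log2 difference -0.04 ± 0.049, SE, edgeR adjusted p = 0.474). The member ranked 26 held 4.79% of a component that stood at 74.1% of EV in ArPHR4 and at 70.8% in ArPHR2, and so did not follow the member's own pattern. Other components with a minor member did follow its direction. Where the member held 23.1%, the total stood at 52.3% of EV in ArPHR4 and at 97.5% in ArPHR2. Where it held 6.49%, the total stood at 72.3% and 97.1%.

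Count and FPKM together give each gene an implied length, which the rule did not use. FPKM is the authors' level per kilobase, so the count of a gene divided by its FPKM and by the library total gives a value in bases. It depends on the depth that the authors scaled to, which the files do not state. For the same gene it also differed between libraries, so it is not read as the fixed length of an assembled sequence. Genes of low implied length are called short features here. The implied lengths of the 51 genes ran from 49.9 to 3120 bases with a median of 783, against 1226 for all genes in the EV range. The set held a larger share of short features. Under 250 bases were 7 genes (13.7%, against 3.04% of all genes in the range), and under 500 bases 13 (25.5% against 10.97%).

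The difference in length was not spread evenly over the set. For the 21 genes at 20 CPM or more in EV the median was 755 bases, against 1362 for all genes at such levels. For the 30 genes under 20 CPM it was 1017 bases, close to the 1010 of all genes there. Genes low under both constructs had a median of 1049 bases and 22.8% under 500 bases, so a larger share of short features than in all genes was also seen outside this set. No test was made of these differences, since genes are not replicates.

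**Figure D5:**
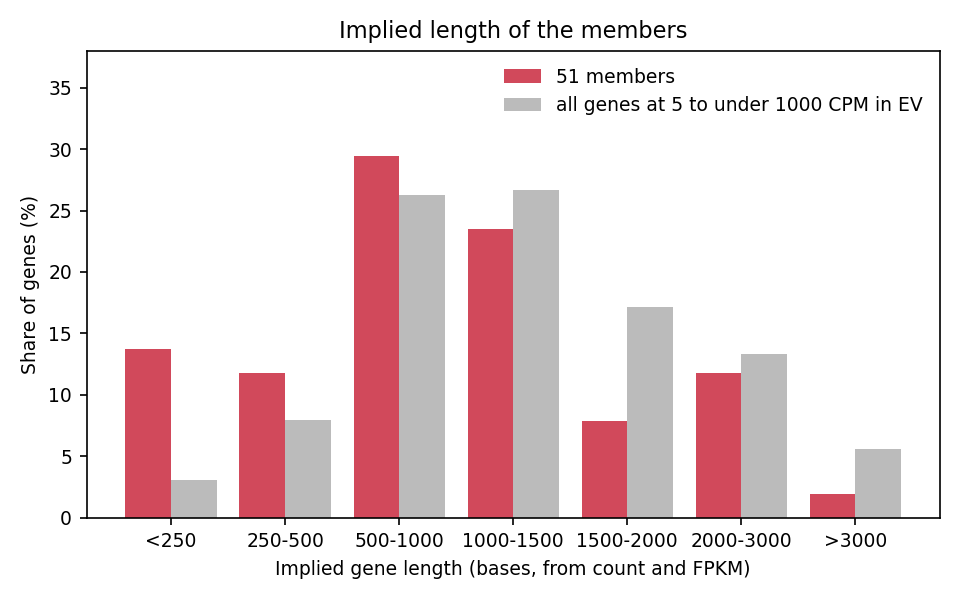
Share of genes (%) by implied length in bases, for the 51 genes (red) and for all 13686 genes at 5 to under 1000 CPM in EV (grey). The red bars exceed the grey ones under 1000 bases, most of all under 250 bases (13.7% against 3.04%).

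Per length, the order of the genes was another one, led by the short features. The gene ranked 2 by CPM had the highest FPKM, with means of 5137 ± 1102, 4023 ± 243 and 2093 ± 638 in EV, ArPHR2 and ArPHR4 leaves (SD, n = 3). The gene ranked 7 followed with 2448 ± 231, 1071 ± 119 and 531 ± 39.8 FPKM, and the gene ranked 20 with 581 ± 18.5, 364 ± 99.9 and 148 ± 11.2 FPKM. These 3 had implied lengths of 49.9 to 70.2 bases. The spreads of the first overlap between EV and ArPHR2, while the second was far lower in ArPHR2 than in EV. Then came the gene ranked 3 at 524 ± 13.7 FPKM in EV and TRINITY_DN8347_c0_g1 at 366 ± 16.4 FPKM.

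On the FPKM scale 20 of the 51 genes no longer met the limits. For 5 of them the EV range, read in FPKM in place of CPM, was the one limit not met. The other 15 left at least 1 limit on a ratio. The ratio of ArPHR4 to EV was at or under 50% for 46 genes, so the drop in ArPHR4 was mostly kept. The nearness of ArPHR2 to EV was kept less often. The FPKM ratio of ArPHR2 to EV left the 80% to 125% range for 12 genes, 8 below it and 4 above, with extremes of 43.8% and 193%. Of the 7 genes under 250 bases, 6 left the range. The same shares over all genes were not taken, so these counts are not read as particular to the set. The gene ranked 7 by EV CPM was the lower extreme, at 43.8% of EV in FPKM and 82.2% in CPM, so on the FPKM scale it was low under both constructs.

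Shifts of implied length between groups were tested with limma over 11468 genes with no library under 100 counts or under 5 FPKM. Of the 51 genes 22 could be examined, and the other 29 were too low in at least 1 library. In ArPHR4 against EV 2 of the 22 were called with a shift of at least 1.5-fold, against 0.837% of all genes examined, and in ArPHR2 against EV the same 2, against 0.488%. Both had higher implied lengths in the overexpression groups, and both belong to the short features just described. At such low values the 1.5-fold limit is reached with a smaller change in bases than in a long gene. The gene ranked 2 by EV CPM, also short, moved the same way but stayed under 1.5-fold. Its log2 shift was 0.21 ± 0.061 in ArPHR4 and 0.37 ± 0.061 in ArPHR2 (SE). What lies behind these shifts was not tested. Between ArPHR4 and ArPHR2 limma called 0 of the 22 at 1.5-fold, against 0.0523% of all genes examined, and 1 with no fold limit, against 10.1%. An unadjusted p under 0.05 (limma) was given to 8 of the 22. The share of all genes examined at that limit was not taken, so nothing is read from this count.

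The gene ranked 7 by EV CPM had the largest log2 shift of the 22 against EV. Its implied length was 39.0, 35.6 and 37.5 bases in EV, 75.3, 62.2 and 74.4 bases in ArPHR2 and 69.9, 64.3 and 65.1 bases in ArPHR4. ArPHR2 and ArPHR4 overlapped, and both stood apart from EV. The log2 shift was 0.87 ± 0.079 in ArPHR4 (SE, limma adjusted p = 0.000258) and 0.92 ± 0.079 in ArPHR2 (limma adjusted p = 0.000686), and it passed in all 15 settings examined with the fold limit. The gene ranked 20 had 45.1, 38.2 and 40.9 bases in EV, 45.6, 77.0 and 69.0 in ArPHR2 and 72.0, 61.6 and 53.2 in ArPHR4. Its log2 shift was 0.63 ± 0.21 in ArPHR4 (SE, limma adjusted p = 0.0359) and 0.60 ± 0.21 in ArPHR2 (limma adjusted p = 0.0473). The call passed in 6 of 14 settings for ArPHR4 and in 2 of 14 for ArPHR2. Leaving out any EV library ended both calls, which left 1 called gene. The ArPHR4 call was also lost without ArPHR4 library 1 or 2, and the ArPHR2 call without ArPHR2 library 2 or 3 or any ArPHR4 library.

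Smaller shifts were common among the 22 genes and in general. With no fold limit limma called 13 longer and 2 shorter in ArPHR4 against EV, where 59.4% of all genes examined were called. In ArPHR2 against EV it called 10 longer and 1 shorter, where 50.4% were called. Longer calls prevailed among all 11468 genes too, with 5450 longer and 1359 shorter in ArPHR4 and 4704 and 1079 in ArPHR2. The median log2 shift in ArPHR4 was 0.07 for the 22 genes and 0.05 for all genes examined, so the lean to longer is not particular to the set. The lean over all genes also depended on how libraries were centred. With no centring their median shift was 0.005 in ArPHR4 and 0.060 in ArPHR2. With gene-wise centring it was 0.002 and -0.001. A general lengthening is therefore not read from these calls. TRINITY_DN47_c0_g2 was among those shorter in ArPHR4, with mean lengths of 1994 ± 50.8, 1984 ± 14.5 and 1782 ± 41.3 bases in EV, ArPHR2 and ArPHR4 leaves (SD, n = 3). These means are not centred by library. On the values centred on each library's median, which limma used, its log2 shift was -0.12 ± 0.023 against EV (SE, limma adjusted p = 0.00345). It was of the same size against ArPHR2 (-0.12 ± 0.023, limma adjusted p = 0.0258). TRINITY_DN47_c0_g2 was the 1 gene of the 22 called between the constructs, where 10.1% of all genes examined were called. For TRINITY_DN8347_c0_g1 the implied lengths, not centred, were 1010 ± 14.6, 1031 ± 5.4 and 971 ± 22.8 bases. No shift to ArPHR4 was called for it. The centred log2 shift was -0.014 ± 0.019 against EV (SE, limma adjusted p = 0.561) and -0.052 ± 0.019 against ArPHR2 (limma adjusted p = 0.129).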

How the data were processed

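The deposited table holds counts and FPKM per assembled gene and library, per the file headers. The authors deposited counts in whole numbers, not normalized. The FPKM values deposited by the authors have 2 decimals. The aligner, counting tool, strand setting and read length were not given in the sources used here, and the form of the IDs is that of Trinity assemblies. The labels' protocols name a SMARTER mRNA-Seq library kit.

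CPM values are counts scaled to a library total of 1000000. The whole table was fitted with edgeR 4.0.16 in R 4.3.3 (TMM, filter by group, quasi-likelihood, 1 mean per group, 6 residual degrees of freedom), with Benjamini-Hochberg adjustment over 27275 genes. The SE of a log2 value is its size over the root of the quasi-likelihood F. Implied lengths were compared with limma 3.58.1 on log2(count / FPKM), each library centred on its median. Alternatives used DESeq2 1.42.0, limma on log2(FPKM + 1) and log2(FPKM + 0.1), other scalings, no filter, summed components and single libraries left out. Both steps were also run on simulated data with independent genes, which did not model reads shared between IDs, and no result given here rests on those runs.

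The members, comparisons and settings were chosen with earlier results of these data known. Without names, the genes given by ID were the highest in EV CPM and the lowest in ArPHR4/EV, the next by ArPHR2 CPM and by ArPHR4/ArPHR2, and of the other IDs in the members' assembly components the 2 with the largest called rise. Genes given by rank were chosen after their values were seen. No gene list or cell type marker could be applied, for want of names. The deposited pairwise values between libraries were not used.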

Additional observations from a re-analysis of the deposited data

How the results depend on the processing

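The number of genes meeting the rule depended on its limits and on the unit more than on the scaling. It was 59 with TMM or DESeq2 size factors (45 of the 51 each) and 43 with upper-quartile scaling (30 of the 51). It was 78 with ArPHR2 within 1.5-fold of EV and 17 within 1.1-fold, 167 with ArPHR4 limits of 1.5-fold and 8 with 3-fold, and 216 with EV of at least 1 CPM and 31 with at least 10 CPM. On FPKM 252 genes met the limits, 201 of them under 5 CPM in EV. Leaving out 1 library gave 45 to 59 genes, and 27 of the 51 met the rule whichever library was left out. All 51 were called lower than EV and than ArPHR2 in every such fit, while limma on FPKM called 49 and 47 at either pseudocount and counts summed by component 49 and 49. The genes called between ArPHR2 and EV numbered 10 to 14 with 1 library left out, and 9 with limma on FPKM at either pseudocount, against 14. With 1 library left out, 5 to 8 companion IDs were called lower in ArPHR4 against EV, and 5 to 8 in either direction in ArPHR2 against EV. The 2 genes with a length shift became 1 in both comparisons with minimums of 200 counts and 10 FPKM, with no centring, with gene-wise centring and with the replicate block. With minimums of 50 counts and 2 FPKM they became 3 in ArPHR4 and 1 in ArPHR2. They became 15 and 11 with no fold limit and 1 to 2 without single libraries. The cause was not tested. Deviations of same-numbered libraries correlated with r of -0.0569 to 0.110, and those of different-numbered libraries with r of -0.0984 to 0.107. The labels also do not say that a number marks a shared plant or day. The numbers were thus not taken to pair the libraries, and the replicate block gave 51 of 51 genes lower against EV. Depth limits the steepest drop, which rests on 61 counts over the ArPHR4 libraries.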
